A study of Mus musculus with 2931 samples.

Results

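The 5 genes described here are Tek (the receptor Tie2), Tie1, Ptprb (the phosphatase VE-PTP), Angpt1 and Angpt2. They were taken by symbol from the 18072 gene rows of a table of read counts, and all 5 symbols were found. The table covers 2931 cells of mouse distal lung, each an endothelial cell (EC, the lining cell of vessels) sequenced on its own, from 10 mice. In normal air there were mice before birth (E18.5, an embryonic day) and on postnatal days 1, 7 and 21 (P1, P7, P21); a further group was kept in hyperoxia, raised oxygen, and taken at P7. These 5 groups hold a female and a male each. Of the cells, 2694 had been sorted for CD31, an endothelial surface protein, 224 came from a gate named mesench and 13 from a CD45 gate. The sources used here give no strain, genotype or oxygen level, and leave unsaid if each named mouse was a single animal or pooled animals.

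Tek and Tie1 are receptor tyrosine kinases found mainly on endothelium. Angpt1, made mostly by cells around the vessel, activates Tek and is known for keeping vessels quiescent and tight. Angpt2, which endothelial cells store and release themselves, opposes or weakly mimics Angpt1 depending on context, and is known for loosening vessels in inflammation and injury. Tie1 binds no angiopoietin with high affinity and modulates Tek in a complex with it. Ptprb removes phosphate from Tek and holds it at junctions, so that it restrains the receptor. In the lung, Car4+ capillary cells (aerocytes) are large, thin cells specialised for gas exchange, while Car4- (general) capillary cells serve as progenitors of the capillary bed.

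In the GENCODE M21 annotation of GRCm38, Tek lies on chromosome 4 from 94739289 to 94874976 on the plus strand, and Tie1 on the same chromosome from 118471191 to 118490061 on the minus strand. Ptprb lies on chromosome 10 (116275523 to 116389535, plus), Angpt1 on chromosome 15 (42424723 to 42676977, minus) and Angpt2 on chromosome 8 (18690263 to 18741562, minus). The sequence before the start of Tek is shown because Tek is the angiopoietin receptor whose level differed most between classes below. It comes from RefSeq (GRCm38.p6, chr4:94739039-94739288, plus strand, 250 bases, 5′ to 3′), and capitals mark GGAA or its complement TTCC, the core of the motif bound by ETS factors.

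Tek: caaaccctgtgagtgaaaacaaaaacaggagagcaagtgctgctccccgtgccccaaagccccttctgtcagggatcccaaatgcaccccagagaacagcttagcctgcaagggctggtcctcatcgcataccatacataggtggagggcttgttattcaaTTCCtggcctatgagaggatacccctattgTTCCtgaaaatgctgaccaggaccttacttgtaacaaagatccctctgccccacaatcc

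The letters GGAA were found 2 times in this window, counted on both strands, starting 89 and 59 bases before the transcript's start. It was present in 93.5% of the same windows of all 32851 promoters in the table, with a median of 3 matches, so the match is a description of this window alone.

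Reads were summed over the cells of a mouse that carry the same class of the authors' subtype labels. The classes were nonproliferative embryonic, proliferative, Car4- capillary (the Early and Late labels together), Car4+ capillary, venous, arterial (the labels I and II together) and lymphatic EC. A sum was used with at least 8 cells, which left 48 sums. A level is given as CPM, a gene's reads for every 1000000 reads in the sum, and mice are the replicates. Cells held between 42095 and 2967985 reads, and the median per cell ranged from 188610 reads in the male P7 mouse to 928377 in the female P7 mouse. All 5 endothelial markers examined (Pecam1, Cdh5, Cldn5, Kdr and Emcn) had reads in every sum. The Car4+ markers summed to between 7197 and 13499 CPM in Car4+ sums and between 364 and 1057 CPM in Car4- sums, and the lymphatic markers to between 5467 and 7437 CPM in lymphatic sums against at most 618 CPM in Car4+ and 409 CPM in Car4- sums. Reads carry no molecular identifiers, so limits set from a count of 0 cover counting error only.

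The 3 receptor-side genes were detected in most cells and the 2 ligands in few. Tie1 had a read in 2549 cells (87.0%), Ptprb in 2479 (84.6%) and Tek in 2261 (77.1%). Angpt2 had a read in 425 cells (14.5%), and 37 of these held 50% of its 73526 reads. Angpt1 had 3551 reads in 56 cells (1.91%), of which 7 cells held 50%. Levels of Angpt1 rest on single cells, and those of Angpt2 on few cells in most sums.

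**Figure D1:**
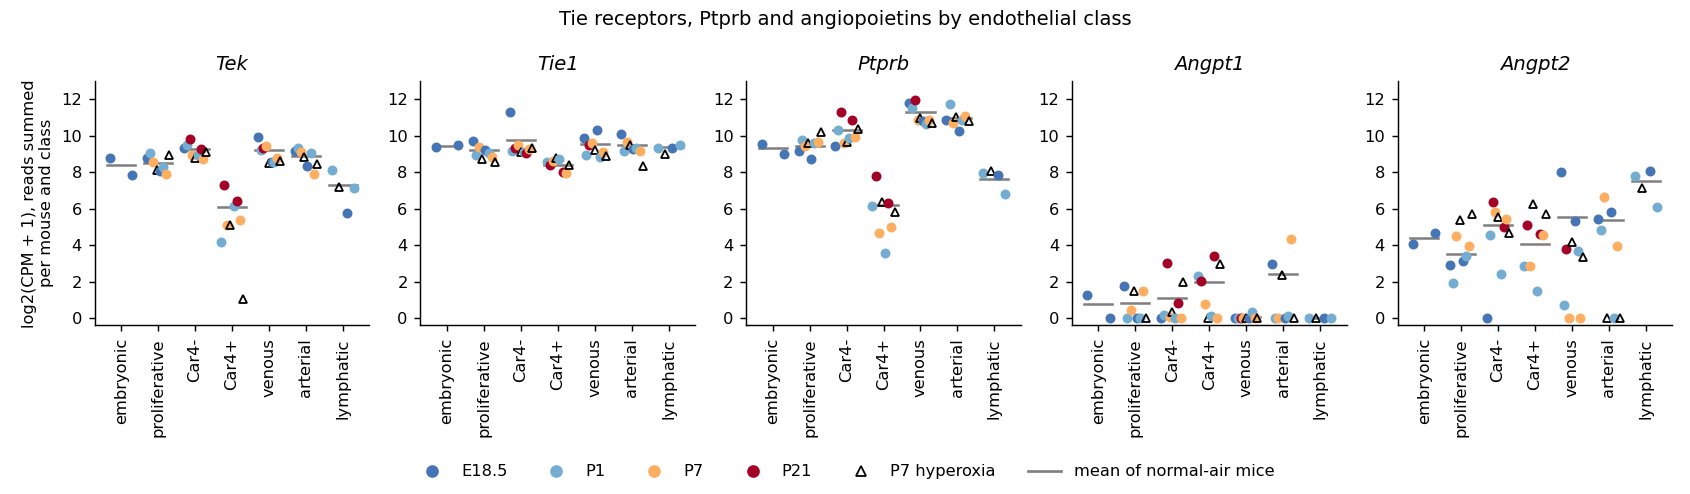
Level of each gene as log2(CPM + 1), 1 point per mouse and class, coloured by age, with open triangles for the hyperoxia mice and grey lines for the mean of the normal-air mice. Tek and Ptprb were lowest in Car4+ capillary sums (mean CPM 66.7 and 72.3), mean Tie1 was 340 CPM in Car4+ and 884 CPM in Car4- sums (611 CPM without the 13-cell sum of the E18.5 female), and Angpt2 had its highest mean in lymphatic sums (183 CPM).

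Car4+ capillary cells had little Tek and Ptprb, while Tie1 was only moderately lower there. In normal air, Tek in Car4+ sums was 16.9 and 70.8 CPM at P1 (female, male), 33.5 and 40.1 CPM at P7, and 154 and 85.2 CPM at P21. In Car4- sums of the same mice it was 720 and 484, 495 and 426, and 903 and 624 CPM. The ranges did not overlap, and the Car4+ value of a mouse was between 0.0235 and 0.171 times its Car4- value. Over the normal-air mice, with all classes in 1 model and the mouse as a term, the log2 difference for Tek was -3.05 ± 0.33 (SE, edgeR quasi-likelihood test, Benjamini-Hochberg adjusted p = 6.61e-07).

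Ptprb showed a larger gap. Its Car4+ sums were at 70.9 and 10.8 CPM at P1, 24.6 and 30.9 CPM at P7, and 219 and 77.2 CPM at P21, against 1269 and 938, 777 and 969, and 2540 and 1843 CPM in Car4- sums. All 6 mice were lower in Car4+, at between 0.0115 and 0.0863 times the Car4- value, and the log2 difference was -4.38 ± 0.32 (edgeR adjusted p = 2.86e-10). The P21 female stood above the other 5 Car4+ sums, and the call held in all 18 alternative analyses, that without this mouse included.

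Tie1 was lower in Car4+ in all 6 mice, but by less. Its Car4+ sums were 384 and 415 CPM at P1, 396 and 244 CPM at P7, and 340 and 257 CPM at P21, and those of Car4- were 577 and 562, 715 and 629, and 642 and 538 CPM. The log2 difference was -0.88 ± 0.24 (edgeR adjusted p = 0.0388). This call was lost in 8 of 18 alternative analyses, with adjusted p up to 0.132; 6 of these left out 1 mouse (either P7, P21 or P1 mouse). The Car4- sum of the E18.5 female, with 13 cells, was far above the others at 2523 CPM, and with the postnatal mice alone the difference was -0.62 (adjusted p = 0.0133).

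For Car4+ against Car4- capillaries, 3 of the 5 genes were called lower and none higher, beside 2.87% of 15232 genes tested called in either direction. Angpt2 was lower in Car4+ in all 6 normal-air mice, at between 0.113 and 0.751 times the Car4- value, but its log2 difference of -0.85 ± 1.26 was not called (edgeR adjusted p = 0.886). At a depth of 50000 reads per cell, 23.2% of 276 normal-air Car4+ cells had a Tek read, 19.6% a Ptprb read and 69.9% a Tie1 read. The shares of 1174 Car4- cells were 78.6%, 89.7% and 75.9%. Among all Car4+ cells, without equal depth, 41.6% of the 89 cells with a Tek read also had a Ptprb read, against 20.6% of the cells without one.

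**Figure D2:**
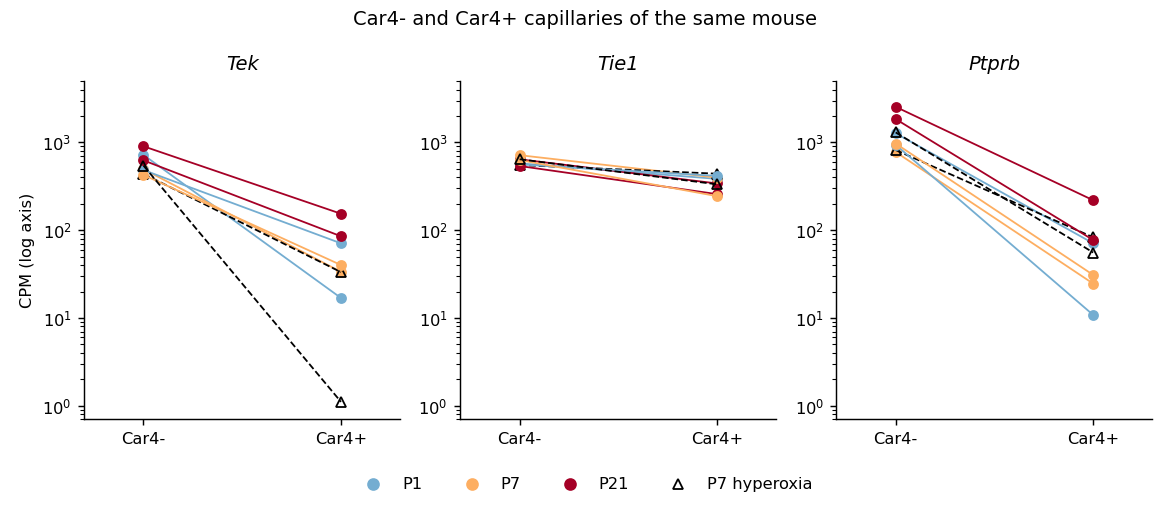
Level of Tek, Tie1 and Ptprb in Car4- and Car4+ capillary sums (CPM, log axis), with a line joining the 2 sums of each of 8 postnatal mice, coloured by age and dashed for hyperoxia. The lines of Tek and Ptprb fall steeply in all 8 mice, those of Tie1 fall less, and the lowest Tek value (1.11 CPM) belongs to the male hyperoxia mouse.

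Between the other blood vessel classes, Tek differed little, and Ptprb was higher in large-vessel than in Car4- sums of the same mouse. Venous Tek in the normal-air mice ranged from 375 to 993 CPM (median 599 CPM, n = 7), arterial Tek from 236 to 645 CPM (median 543 CPM, n = 6) and Car4- Tek from 426 to 903 CPM (median 624 CPM, n = 7). These ranges overlapped, and neither venous nor arterial Tek was called against Car4- (edgeR adjusted p = 0.977 and 0.951). Ptprb ranged from 1609 to 4013 CPM in venous sums, with a median of 1898 CPM, and from 1206 to 3408 CPM in arterial sums, with a median of 1854 CPM. Both ranges overlapped that of Car4- sums, from 681 to 2540 CPM with a median of 969 CPM, whose highest values were those of P21. Within mice, Ptprb was above the Car4- value in all 6 with a venous sum and all 5 with an arterial sum beside a Car4- sum. The median factors were 2.09 and 2.25.

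The log2 difference of Ptprb was 1.23 ± 0.27 for venous (edgeR adjusted p = 0.0121) and 1.14 ± 0.28 for arterial against Car4- (adjusted p = 0.0432). Without the mouse as a term it was 0.97 (adjusted p = 0.167) and 0.63 (adjusted p = 0.505). The venous call was also lost with the postnatal mice alone (1.01, adjusted p = 0.0759) and without the female mouse of E18.5, P1 or P7, and the arterial call without any 1 of 7 mice, all but the P21 female, with adjusted p up to 0.171. Ptprb was the 1 called gene of 5 in each comparison, beside 1.96% of genes called for venous and 0.834% for arterial against Car4-. For arterial against venous EC none of the 5 genes was called by edgeR, no unadjusted p was under 0.05, neither DESeq2 nor limma called any, and 1.56% of all genes were called.

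Lymphatic EC had low Tek and Ptprb, while Tie1 lay within the range of the blood vessel classes. The lymphatic sums of the E18.5 male (10 cells), P1 female (26 cells) and P1 male (13 cells) had 54.3, 276 and 141 CPM of Tek and 231, 250 and 110 CPM of Ptprb. Their Tie1 was 644, 640 and 726 CPM. Against Car4-, the log2 difference was -1.93 ± 0.43 for Tek (edgeR adjusted p = 0.00512) and -2.33 ± 0.40 for Ptprb (adjusted p = 0.000311). Against venous EC it was -2.01 ± 0.43 (adjusted p = 0.0033) and -3.56 ± 0.42 (adjusted p = 8.25e-07). Both Tek calls were lost with sums of at least 15 cells, which leave 1 normal-air lymphatic sum, with the postnatal mice alone, and without the male mouse of E18.5 or of P1, with adjusted p up to 0.765. The Ptprb calls held in all 18 alternatives.

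Among the ligands, Angpt2 had its highest mean in lymphatic EC, at 183 ± 103 CPM (SD, n = 3), with 263, 219 and 66.9 CPM in the sums of the E18.5 male, P1 female and P1 male. At 50000 reads per cell, 45.2% of 62 normal-air lymphatic cells had an Angpt2 read, against 5.41% of venous, 5.43% of Car4+, 7.84% of arterial, 10.2% of proliferative and 11.3% of Car4- cells. The hyperoxia mice gave 42.9% and 50% of 14 and 6 lymphatic cells. The log2 difference was 3.11 ± 1.62 against Car4- (edgeR adjusted p = 0.36) and 3.34 ± 1.72 against venous EC (adjusted p = 0.34). The difference from venous EC was called by limma (adjusted p = 0.00622) and at equal depth (adjusted p = 0.0163). Angpt1 had 0 reads in all 82 lymphatic cells, which allows a share of up to 3.66% of cells with a read.

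For lymphatic EC, 2 of the 5 genes were called against Car4- and 2 against venous EC, all lower, beside 4.48% and 5.21% of genes. Proliferative EC had lower Tek, Tie1 and Ptprb than Car4- in all 5 normal-air mice with both sums, but edgeR called 0 of the 5 genes, DESeq2 and limma 0, beside 0.808% of genes. Tie1 alone had an unadjusted p under 0.05, with a log2 difference of -0.72 ± 0.24 (edgeR adjusted p = 0.222), and was called when all 10 mice were fitted (adjusted p = 0.0254). Its proliferative level was 0.326 times the Car4- level in the E18.5 female, whose Car4- sum of 13 cells stood far above the others. In the other normal-air mice it was between 0.736 and 0.946 times the Car4- level. For proliferative against nonproliferative embryonic EC, 0 of 5 genes were called by edgeR, the same 0 held for unadjusted p under 0.05 and for calls by DESeq2 and limma, and 0.0131% of genes were called.

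Per kilobase of annotated exon, mean Tek and Tie1 levels were 125 ± 46.4 and 151 ± 58.4 CPM per kilobase in venous sums (SD, n = 7), and 14.2 ± 10.5 and 69.1 ± 14.9 in Car4+ sums (n = 6). The ratio of Tek to Tie1 on this scale had a median of 0.919 in venous, 0.9 in Car4-, 0.64 in arterial and 0.577 in proliferative sums, against 0.203 in lymphatic and 0.175 in Car4+ sums. The Car4+ ratios ran from 0.0459 to 0.472 and those of Car4- from 0.267 to 1.47, and the overlap came from the E18.5 female alone (13 Car4- cells, no Car4+ sum). Without that sum the Car4- ratios began at 0.706, above the highest Car4+ ratio.

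Tek and Ptprb varied together over the sums. Of 9166 genes with a mean of at least 10 CPM, Ptprb had the highest correlation with Tek over the 48 sums (Pearson r = 0.82 of log2(CPM + 1), Spearman rho = 0.77), followed by Fat4 (0.82) and Hmcn1 (0.81). Tie1 correlated with Tek at r = 0.52. The genes most alike to Ptprb were Cemip2 (0.88), Rflnb (0.88) and Hmcn1 (0.88), those for Tie1 were Tead2 (0.72), Nedd4 (0.71) and Epb41 (0.71), and those for Angpt2 were Mettl27, Cxadr and Cerk, at 0.61 or less. These orders depend on the measure: by Spearman, Vwf ranked first for Ptprb (0.90), Tead2 was 9th for Tie1 and Mettl27 6th for Angpt2, while Ptprb stayed first for Tek. Sums of 1 mouse share that mouse and, in part, its gates and sequencing runs, and Car4+ sums lie at the low end of both Tek and Ptprb, so r describes these sums and carries no test.

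**Figure D3:**
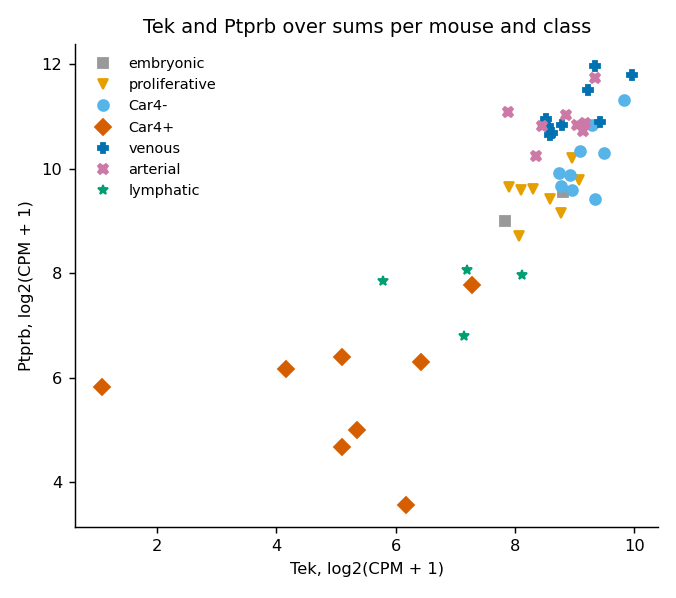
Ptprb against Tek as log2(CPM + 1), 1 point per sum of a mouse and class (48 sums), with a symbol for each class. Car4+ and lymphatic sums lie low on both axes, and venous and arterial sums mostly lie above Car4- sums of similar Tek. An exception is the Car4- sum of the P21 male (624 CPM of Tek, 1843 CPM of Ptprb). It lies above the arterial sum of the P7 female (561 and 1681 CPM).

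With age, Tek and Ptprb were lowest on average in embryonic EC at E18.5 and highest in Car4- capillaries at P21, but edgeR called no difference. Nonproliferative embryonic EC at E18.5 had 445 and 228 CPM of Tek and 752 and 514 CPM of Ptprb (female, male). Car4- sums at P1 had 720 and 484 CPM of Tek and 1269 and 938 CPM of Ptprb, at P7 495 and 426 CPM and 777 and 969 CPM, and at P21 903 and 624 CPM and 2540 and 1843 CPM. For both genes the P21 mice lay above both P7 mice, and for both the embryonic sums of E18.5 lay below both P1 mice. Tie1 lay between 538 and 720 CPM over these 8 sums. They leave out the 1 Car4- sum of E18.5, from 13 cells of the female, which had 645 CPM of Tek, above the P1 male, 681 CPM of Ptprb and 2523 CPM of Tie1.

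The log2 difference of P21 against P7 in Car4- sums was 0.83 ± 0.35 for Tek (edgeR adjusted p = 0.439) and 1.44 ± 0.39 for Ptprb (adjusted p = 0.196), and DESeq2 called the difference of Ptprb (adjusted p = 0.00704). The 2 male mice of P7 and P21 shared a sequencing run, and within its CD31-sorted cells Tek was 393 and 604 CPM and Ptprb 823 and 1588 CPM. For E18.5 embryonic against P1 Car4- sums the differences were -0.91 ± 0.40 for Tek (adjusted p = 0.493) and -0.88 ± 0.40 for Ptprb (adjusted p = 0.513). The label changes with age as well, so age and label cannot be told apart here. Of the 5 genes, 0 were called for Car4- P7 against P1 (0% of 14660 genes), 0 for P21 against P7 (0.266%) and 0 across birth (0.494% of 14967).

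**Figure D4:**
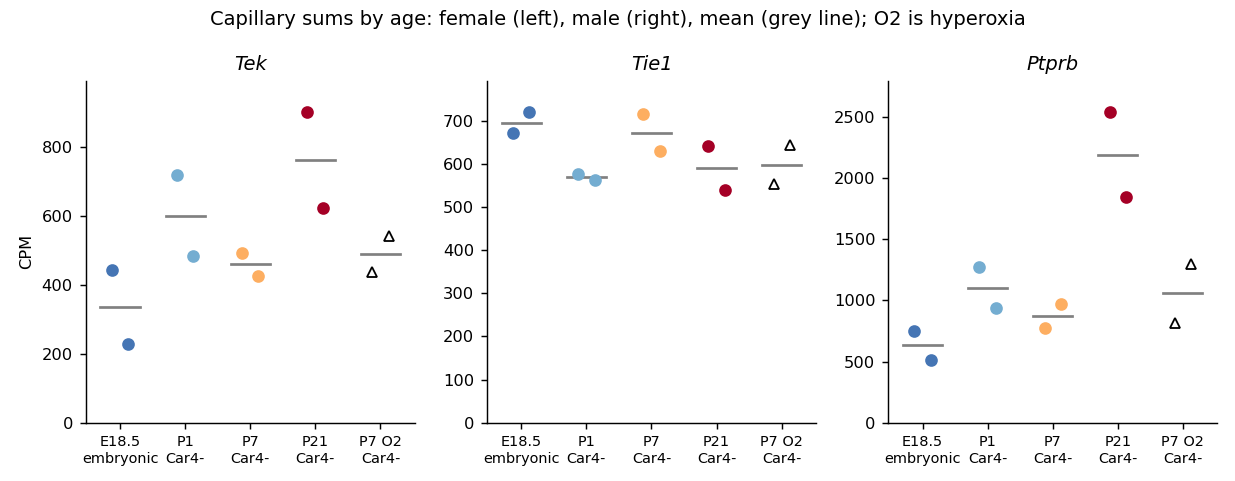
Level of Tek, Tie1 and Ptprb (CPM) in embryonic sums at E18.5 and Car4- capillary sums at P1, P7, P21 and P7 after hyperoxia, 1 point per mouse with the mean as a grey line. The means of Tek and Ptprb are lowest in embryonic sums and highest at P21, and the ranges of the hyperoxia mice overlap those of the P7 mice in normal air.

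The Early and Late Car4- labels differed in the share of cells with a receptor read. In the 2 mice with at least 20 cells of each label, at 50000 reads per cell, Tie1 was found in 96.2% of Early and 47.6% of Late cells of the P1 female, and in 84% and 29.5% of the P7 female. Tek was found in 95% and 52.4%, and in 77.8% and 34.1%, and Ptprb in 97.5% and 76.2%, and in 87.7% and 63.6%. The CPM of the same sums did not order the labels alike: in the P1 female Tek was 712 CPM in Early and 822 CPM in Late sums, and in the P7 female 528 and 265 CPM. All 5 endothelial markers also had a lower share in Late than in Early cells over all mice, from 83.8% against 99% for Pecam1 to 60.3% against 86.6% for Kdr and 58.7% against 85.8% for Emcn. The part of this lower detection in the difference was not tested. At P21, where Late cells make up most of the class, Tek was found in 87.7% and 63% of Late cells (female, male).

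In Car4+ capillaries Ptprb was higher in both P21 mice (219 and 77.2 CPM) than in both P7 mice (24.6 and 30.9 CPM), a log2 difference of 2.27 ± 0.93 that was not called (edgeR adjusted p = 0.858). Tek was also higher in both P21 mice, by 1.58 ± 1.26 (adjusted p = 0.946). The share of all genes that separate the P21 from the P7 mice in this class was not computed. Within the run that the males shared, Ptprb was 80.0 CPM at P7 and 166 CPM at P21. Of all genes, 0% of 12284 were called for P7 against P1 and 0.00814% for P21 against P7.

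Mean Angpt2 varied with age in Car4- and venous sums, without a call in the edgeR fit of all mice on filtered genes. In Car4- sums it was 22.5 and 4.29 CPM at P1 and 55.7 and 42.9 CPM at P7, a log2 difference of 1.88 ± 0.69 (edgeR adjusted p = 0.397), and at P21 it was 80.4 and 31.3 CPM. In CD31-sorted cells alone the P7 male had 17.4 CPM (111 of its 116 cells), below the 23.04 CPM of the P1 female, so that the ages overlapped. In venous sums it was 258 and 39.5 CPM at E18.5 (11 cells each), 0.64 and 12.04 CPM at P1, 0 and 0 at P7, and 12.9 CPM in the P21 female. The log2 difference of P1 against E18.5 was -4.63 ± 1.57 (edgeR adjusted p = 0.504) and was called by DESeq2 (adjusted p = 0.00919). Venous P7 against P1 was called by DESeq2 (-8.75, adjusted p = 0.00156) and by edgeR with no filter on low counts (-10.08, adjusted p = 0.00364). Venous Tie1 was 952 and 1258 CPM at E18.5 and 491 and 461 CPM at P1, a difference of -1.34 ± 0.48 (edgeR adjusted p = 0.541).

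Over the 9 age comparisons edgeR called 0 of 43 tests of the 5 genes against 4 for DESeq2 and 0 for limma. Of the edgeR tests, 10 had an unadjusted p under 0.05, beside 8.15% of tests over all genes. Shares of all genes called by DESeq2, limma or the other alternatives are not given here, so their calls have no background beside them. On the pathway list described below, DESeq2 called 14 of 244 age tests where edgeR called 0. For venous EC 0.0162% of genes were called for P1 against E18.5 and 0% for P7 against P1, and for proliferative EC 0% in both comparisons. With 2 mice a group, these p-values rest on few samples.

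Angpt1 was the sparsest of the 5 genes, and no comparison of it was called by edgeR, while DESeq2 called P21 against P7 in Car4- sums (adjusted p = 0.0297). Its highest sums were 19.3 CPM in arterial cells of the P7 male (10 cells), 9.6 CPM in Car4+ cells of the P21 male and 7.22 CPM in Car4- cells of the P21 female, and 25 of the 48 sums had 0 reads. Of its 56 cells, 52 came from the CD31 gate and 4 from the mesench gate. At 50000 reads per cell, 34 cells had an Angpt1 read. Among these, 7 (20.6%) had a read of any of 7 mesenchymal markers and 14 (41.2%) of any of 5 epithelial markers, against 9.39% and 17.9% of the 2886 other cells. Of the cells with an Angpt1 read, 4 (11.8%) had reads of at least 2 mesenchymal markers, against 1.07% of the others. For epithelial markers these shares were 8.82% and 1.73%, and for haematopoietic markers 5.88% and 1.39%. The part of such cells in the Angpt1 level was not tested.

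After hyperoxia, Tek, Tie1 and Ptprb in Car4- capillaries did not separate from normal air. Car4- sums of the hyperoxia mice had 438 and 544 CPM of Tek, 552 and 642 CPM of Tie1 and 818 and 1299 CPM of Ptprb, and all 3 ranges overlapped those of the P7 mice in normal air. Car4+ Tek was 33.3 and 1.11 CPM after hyperoxia and 33.5 and 40.1 CPM in normal air, so both hyperoxia mice were lower, the male far more than the female. Its log2 difference was -1.41 ± 1.25 (edgeR adjusted p = 0.9). Car4+ Ptprb was 82.9 and 55.7 CPM, above the 24.6 and 30.9 CPM of normal air, with a difference of 1.03 ± 0.90 (adjusted p = 0.897). In the CD31-sorted cells of the 1 run that held both P7 males, Ptprb was instead lower after hyperoxia (55.7 against 80.0 CPM), and Tek was 1.11 against 103.5 CPM. Venous Tek was lower in both hyperoxia mice (367 and 392 CPM) than in normal air (685 and 439 CPM), and so was proliferative Tie1 (429 and 377 against 659 and 463 CPM), neither called (edgeR adjusted p = 1). Car4+ Tie1 was 440 and 333 CPM after hyperoxia and 396 and 244 CPM in normal air, and overlapped.

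Hyperoxia values of Angpt2 lay above those of normal air in some classes and below them in others. No difference was called in the edgeR fit of all mice on filtered genes. In Car4+ sums it was 76.8 and 50.6 CPM after hyperoxia (19 and 37 cells) and 6.27 and 22.4 CPM in normal air (42 and 24 cells). In proliferative sums it was 40.0 and 51.2 CPM against 21.3 and 14.3 CPM, and in both classes the groups did not overlap. With 2 mice a group that is common. Of genes with a mean of at least 1 CPM, the groups did not overlap for 33.2% in Car4+, 33.5% in proliferative, 34.4% in venous and 29.9% in arterial EC. They did not overlap for 9 of 25 pairs of a class and 1 of the 5 genes. These pairs are an unlike set: they include Car4- EC, for which no share was computed. They also include pairs with a mean under 1 CPM, such as Angpt1 in venous EC (0 CPM in both groups). In venous sums Angpt2 was 17.2 and 9.12 CPM after hyperoxia and 0 in the 44 cells of both normal-air mice. With 3 reads over the normal-air group taken as the floor, its reads were at least 125-fold higher after hyperoxia. These 519 venous reads came from 6 of 53 cells, and leaving out 1 mouse moved the bound to between 21.55-fold (without the P7 female) and 179.7-fold (without the male hyperoxia mouse). In arterial sums it was 98.1 and 14.8 CPM in normal air, from 3 of 27 cells, and 0 in the 33 cells of both hyperoxia mice. By the same rule its reads were at least 741-fold lower. Without the P7 female the arterial bound was 126-fold, and without the female or male hyperoxia mouse 393-fold or 348-fold. Both bounds count reads and leave out the sampling of cells. With reads in so few cells, they are no limit for the level in further cells. Angpt2 was also 0 in the arterial sum of the P1 male in normal air. In Car4- sums it was 45.9 and 24.4 CPM after hyperoxia and 55.7 and 42.9 CPM in normal air, and the ranges overlapped.

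For Angpt2 the log2 difference was 1.79 ± 1.31 in Car4+ (edgeR adjusted p = 0.844), 1.34 ± 1.16 in proliferative and -0.53 ± 0.67 in Car4- EC (both adjusted p = 1). The venous and arterial differences were called by DESeq2 (adjusted p = 0.000148 and 9.83e-05) and by edgeR with no filter on low counts (0.00114 and 0.0243). The gate bore on the Car4+ values: in CD31-sorted cells alone, Angpt2 was 0.779 CPM in the P7 female and 0 in the P7 male, against 76.8 and 50.6 CPM after hyperoxia. At 50000 reads per cell, 26.3% and 16.2% of the hyperoxia Car4+ cells had an Angpt2 read, against 4.76% and 4.17% in normal air.

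**Figure D5:**
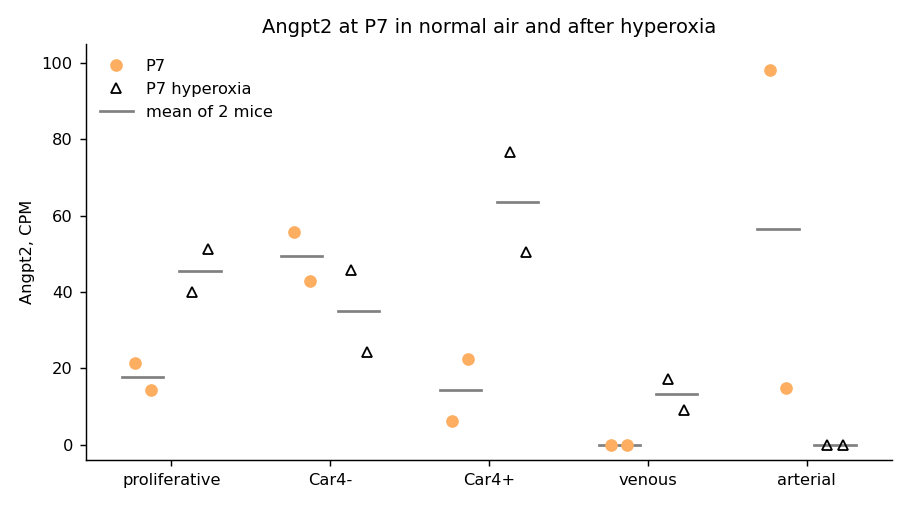
Angpt2 level (CPM) at P7 in 5 classes, with filled circles for normal air, open triangles for hyperoxia (female left, male right) and grey lines for the mean of 2 mice. Hyperoxia values lie above those of normal air in proliferative, Car4+ and venous sums and at 0 in arterial sums.

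The share of all genes called under hyperoxia was 0.0136% in Car4- and 0% in Car4+, proliferative, venous and arterial EC. For the 5 genes edgeR called 0 of 24 tests against 2 for DESeq2 and 0 for limma. Of the edgeR tests, 2 had an unadjusted p under 0.05, beside 4.03% of tests over all genes. A direct test asked whether the hyperoxia effect in a class differed from that in Car4- capillaries. By edgeR it called 0 of 20 tests, beside 0% of genes in each of the 4 comparisons. Of these tests, 2 had an unadjusted p under 0.05, beside 3.02% over all genes. DESeq2 called 2 and limma 0, and no share of all genes is given for either. The difference for Car4+ was 2.72 ± 1.37 for Angpt2 and -2.81 ± 1.54 for Tek on the log2 scale (both edgeR adjusted p = 1), and that for Tek was called at equal depth (-2.46, adjusted p = 0.00139).

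Other genes of the pathway were read from a list of 30 that covers partners of the ligands, adaptors, the PI3-kinase and FOXO branch, junction partners of Ptprb, sheddases and regulators of Tek. In Car4+ against Car4- EC 4 of the 30 were called, all lower, beside 2.87% of all genes, with a median log2 difference of -0.07 over the list beside -0.21 over all genes. They included Vwf, the cargo with which Angpt2 is stored (-8.44 ± 1.13, edgeR adjusted p = 1.65e-05), the transcription factor Gata3 (-4.9 ± 1.02, adjusted p = 0.00512) and the integrin subunit Itga5 (-2.48 ± 0.35, adjusted p = 4.8e-05). The fourth was Foxo1, which Tek signalling holds out of the nucleus (-1.87 ± 0.49, adjusted p = 0.0332).

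In venous against Car4- EC (1.96% of all genes called) 1 of the 30 was called higher, Vwf (6.42 ± 0.97), and 2 lower, Ets1 (-1.99 ± 0.36) and the junction cadherin Cdh5 (-1.19 ± 0.19), with edgeR adjusted p of 0.000268, 0.0014 and 0.000417. With 0.834% of all genes called, Vwf was also the 1 list gene called in arterial against Car4- EC (4.94 ± 0.91, adjusted p = 0.00508). In lymphatic EC (4.48% of genes called against Car4-, 5.21% against venous EC) the metalloprotease Mmp14 was higher than in Car4- (2.62 ± 0.52, adjusted p = 0.00174), and Gata3 (-11.1 ± 1.98, adjusted p = 0.00048) and Cdh5 (-1.51 ± 0.26, adjusted p = 0.000311) were lower. Against venous EC Mmp14 was higher and Gata3, Vwf and Klf2 were lower. Median log2 differences of the list were -0.78 and -0.36 for lymphatic EC against Car4- and venous EC, beside -0.17 and -0.02 over all genes. In the other subtype comparisons (proliferative EC against Car4- and embryonic EC, and arterial against venous EC) edgeR called 0 list genes, with 4, 0 and 5 unadjusted p under 0.05. It also called 0 in the age, hyperoxia and interaction comparisons, with 32 of 244, 7 of 133 and 3 of 111 tests at an unadjusted p under 0.05 (13.1%, 5.26% and 2.7%, beside 8.15%, 4.03% and 3.02% over all genes), where DESeq2 called 14, 2 and 0 and limma 0.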

How the data were processed

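Single endothelial cells were prepared as full-length Tn5 libraries on plates, per the labels' protocols, and each deposited sample is 1 cell. The authors deposited raw counts (whole reads for each gene in each cell), which had not been normalized. The submitters' processing notes name STAR 2.5.2b and HTSeq 0.10, and the build GRCh38, a human build, although the gene symbols are those of mouse; gene positions given here are from GENCODE M21 (GRCm38) and were matched by symbol. Subtype, sex, age, treatment and mouse come from the labels, and no cells were clustered again.

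Reads were summed per mouse and class (at least 8 cells) and tested with edgeR 4.0.16 (TMM, filterByExpr, quasi-likelihood F test). The p-values were adjusted over all genes of a comparison, with a threshold of 0.05. Each SE beside an edgeR difference was worked back from the test, as the size of the log2 difference divided by the square root of F. Subtype comparisons used the 8 normal-air mice with the mouse as a term, since sums of 1 mouse are paired by the label that names it. Age and hyperoxia comparisons used 1 model per class with 2 mice a group. The CD31-sorted cells of the P7, P21 and hyperoxia females came from separate sequencing runs (DC21, DC23 and DC36). Those of the males of these groups shared 1 run (DC30). Run and group therefore cannot be told apart between these females. Where labels do not show separate animals, p-values measure the spread between these samples only. Alternatives were DESeq2 1.42.0, limma 3.58.1 on log2(mean CPM over cells + 1), RLE normalization, no filter on low counts, CD31-gate cells alone, cells thinned to 50000 reads (11 shallower cells left out), sums of at least 15 cells, other terms or mice, and leaving out each mouse. Named genes are the 5 genes, up to 3 called genes of the pathway list per comparison by fold (Foxo1 and Klf2, beyond these, were named after their values were seen), and the 3 most correlated genes. The genes and lists were chosen with earlier results of these data known. The label Proliferative venous EC (10 cells, hyperoxia only) entered no test.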

Additional observations from a re-analysis of the deposited data

Results flagged for a closer look

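Single mice stood apart from the others of their class in normal air, with a gap to the nearest mouse above Dixon's 95% limit, in 6 of 25 groups of a gene and class. For normally distributed values chance flags about 1 in 20 groups. The CPM were not transformed, and those of Angpt1 and Angpt2 rest on few cells with values at 0. This rate therefore need not hold here. In 1 of the 6, Angpt1 in venous sums, all other mice were at 0. Tie1 in Car4- sums was 2523 CPM in the E18.5 female, from 13 cells, with the next at 715 CPM. Ptprb in Car4+ sums was 219 CPM in the P21 female, with the next at 77.2 CPM. Angpt2 in venous sums was 258 CPM in the E18.5 female, from 11 cells, with the next at 39.5 CPM. Angpt1 was highest in Car4- sums in the P21 female (7.22 CPM), in arterial sums in the P7 male (19.3 CPM) and in venous sums in the P1 male (0.255 CPM).

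Under hyperoxia, Angpt2 was higher in both mice of 3 classes and lower in both mice of arterial EC. Over the 5 genes and 5 classes, 9 of 25 pairs separated the 2 mice of each group. Of genes with a mean of at least 1 CPM, 29.9% to 34.4% did so in these 4 classes. Among the 9 was Angpt1 in Car4- EC, with means of 1.62 CPM after hyperoxia and 0.0217 CPM in normal air. For Car4- EC the share of genes was not computed. Pairs with a mean under 1 CPM were kept among the 25, so this count and the shares cover unlike sets. The change of the mean in Car4+ EC exceeded that in arterial EC by 106 CPM, that in proliferative EC by 84.2 CPM and that in venous EC by 69.6 CPM, and the difference between these classes and arterial EC was not tested.

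The label Proliferative venous EC, in no comparison, had 10 cells in the hyperoxia mice. Its pooled levels were 423 CPM of Tek, 357 CPM of Tie1 and 1481 CPM of Ptprb, and no cell had a read of Angpt1 or Angpt2.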

How the results depend on the processing

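The 9 subtype calls over 40 tests of the 5 genes became between 5 and 8 when 1 mouse was left out, with 5 calls without the P1 male, and 7 with no replicate block (the mouse left out of the model). Age calls rose from 0 to 4 with DESeq2, to 1 with no filter on low counts, and to between 0 and 1 when 1 mouse was left out. Hyperoxia calls rose from 0 to 2 with DESeq2, to 2 with no filter, and to between 0 and 1 when 1 mouse was left out, the 1 in both families being venous Angpt2 without the E18.5 male. Interaction calls rose from 0 to 2 with DESeq2 and to 1 with cells thinned to 50000 reads. The causes were not tested. There were 695 other values over 45 results. A fit counted as unchanged with the same direction and side of the threshold, and mice of a shared run with the same direction. A most alike gene did so at rank 3 or better, and a Car4+ level as percent of Car4- within 1 SD. So counted, 641 values were unchanged, 12 stronger, 29 weaker and 10 moved, and 3 reversed. Most results were fits without a call, for which unchanged means still not called in the same direction. All 29 weaker values were lost subtype calls. They were Tie1 in Car4+ (8) and Ptprb in arterial (8) and venous EC (5), each against Car4-. The others were Tek in lymphatic EC against Car4- (4) and venous EC (4). Tie1 in lymphatic against Car4- EC was 0.12 on the log2 scale with at least 15 cells per sum. Between mice that share a sequencing run, the log2 hyperoxia difference was 0.46 for Angpt2 in Car4- and -0.52 for Ptprb in Car4+ EC. With sex as a replicate block, age and hyperoxia calls stayed at 0. Deviations of same-sex mice correlated between -0.07 and 0.219 over 30 pairs of groups within a class, 9 of them over 0.1. All 3 pairs among P1, P7 and hyperoxia passed 0.1 in Car4- and arterial EC, and not in the other classes. Levels of Angpt1 and Angpt2 rest on few cells: 7 and 37 cells hold 50% of their reads.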
